A study of Mus musculus with 200 samples.

Results

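Of the 200 single cells of the series, the 100 that came from mice wild type for Aire were divided by how brightly each cell had stained for MHC class II on its surface before it was lysed. The division was made separately within 4 strata, given by the 2 GFP gates (GFPhi and GFPlo) and the 2 sort dates. A cell brighter than the median of its stratum went to the upper side, and a cell at or below the median went to the lower side. This gave 49 cells above the median and 51 at or below it, whose counts were summed over the strata. The stain alone chose the sides, so the transcripts described here played no part in the choice.

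The cells were sorted from thymi of 5-week-old female B6xNOD mice after digestion with collagenase and dispase, as CD45-, Ly51-, MHCII+ and GFP+ events. All mice, the wild types included, carried the Aire-GFP transgene, which marks cells that express Aire, so these wild-type cells were WT;AireGFP in both gates. The WT_GFPhi group held 61 of the 100 cells and the WT_GFPlo group 39. The labels name no animal, so each side of the split was treated as 1 sample: no p-value is given, and the intervals below are 95% intervals for the counting error of sequencing tags only. They hold no variation between cells or mice. The levels are counts per 1000000 summed counts (CPM), and a ratio is the level above the median stain over the level at or below it.

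Medullary thymic epithelial cells show fragments of the proteins they make, including proteins that belong to other organs, to developing T cells. An MHC class II molecule is a pair of an alpha and a beta chain that is assembled with the invariant chain Cd74, led to endosomes, stripped of Cd74 by proteases and loaded with a peptide with the help of H2-DM, which H2-O restrains. How much reaches the surface depends on transcription driven by Ciita at the conserved X and Y boxes of class II promoters, and also on transport, peptide loading and removal from the surface. As the cells mature they gain surface class II, the costimulator Cd80 and Aire, a nuclear protein that lets many tissue-specific genes be transcribed.

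The promoters of 2 of the chain genes are shown because the boxes that class II genes share can be read in them. They run from 250 bases before to 50 bases after the annotated start, are taken from RefSeq (GRCm38.p6), and are written along the gene's own strand. H2-Aa, the alpha chain of I-A, has its window at chr17:34287774-34288073 on the minus strand, and H2-Eb1, the beta chain of I-E, at chr17:34305617-34305916 on the plus strand. Capitals mark exact matches to 3 strings of letters: TGACGTCA, the core of the X2 box, CTAGCAAC, a core of the X1 box, and CTGATTGG, the Y box, whose last letters hold the reversed CCAAT box.
H2-Aa: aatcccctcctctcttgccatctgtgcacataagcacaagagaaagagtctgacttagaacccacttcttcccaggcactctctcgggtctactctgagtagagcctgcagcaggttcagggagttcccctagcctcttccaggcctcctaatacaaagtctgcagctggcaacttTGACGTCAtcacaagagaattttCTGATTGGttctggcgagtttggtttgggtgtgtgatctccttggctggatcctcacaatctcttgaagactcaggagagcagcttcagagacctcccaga
H2-Eb1: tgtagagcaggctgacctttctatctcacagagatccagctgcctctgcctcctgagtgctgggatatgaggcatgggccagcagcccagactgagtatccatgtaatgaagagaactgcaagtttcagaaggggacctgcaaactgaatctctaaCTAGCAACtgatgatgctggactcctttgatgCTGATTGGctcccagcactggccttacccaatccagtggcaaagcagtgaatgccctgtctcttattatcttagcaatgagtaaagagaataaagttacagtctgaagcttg
In the H2-Aa window the X2 core began at -74 and the Y box at -51 from the start. In the H2-Eb1 window the X1 core began at -94 and the Y box at -62. Searched on both strands of 32851 promoters of this length, TGACGTCA was in 1.79%, CTAGCAAC in 1.32% and CTGATTGG in 4.10%, while the shorter CCAAT was in 37.4%. A match describes letters and shows no binding. In the GENCODE annotation of the same build (mm10, GRCm38) the genes span chr17:34282744-34287823 for H2-Aa, chr17:34257689-34269419 for H2-Ab1, chr17:34305867-34316674 for H2-Eb1 and chr17:34325665-34341412 for H2-Eb2.

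Total counts per cell ran from 4676 to 370365 with a median of 31025 over the 100 cells. The sides were close in summed counts, with 2814359 above the median and 2914422 at or below it. Other measures of depth were higher above: identifiers per cell had medians of 58159 and 37764, and unique reads 68817 and 51630. Counts were uneven between the 12 library pools named in the titles, which are numbered here in title order: pool 11 gave 40% of all counts above the median stain and 21.5% of those at or below it, and pool 12 gave 6.81% and 24.2%. H2-Aa and Cd74 had counts in 100 of the 100 cells, Aire in 83, Epcam in 84 and Cd80 in 16. In 40 cells (21 above and 19 at or below) the summed counts of leukocyte markers exceeded those of epithelial markers, although the sort had been gated on CD45-. Ptprc, which encodes CD45, had counts in 27 cells, but these did not always carry the mark. Among GFPhi cells, replicates 8, 18 and 33 had Ptprc counts without the mark, and replicate 26 had both. Replicates 2, 4 and 5 had the mark and no Ptprc count. The titles also name a primer kind, ls or umi, and umi primers were used for 9 cells above and 16 at or below. Primer kind and the leukocyte mark overlapped. In GFPhi cells of the first date the umi cells, replicates 4, 11, 17 and 23, were all marked, as were some ls cells. On the second date replicate 28 of GFPhi was umi and not marked. Values without the leukocyte-marked cells thus also change the mix of primer kinds, and the part of each was not tested. In 5 cells, 2 above and 3 at or below and all from the second date, B and plasma cell genes took more than 1% of counts. Directions often turned with the libraries and cells included. Of 23 gene lists 11 changed the sign of their log2 ratio when 1 pool was left out, as did 50 of 122 genes. On the first date alone 8 lists had another sign than over both dates, without the leukocyte-marked cells 2 and without those 5 cells 5. The paragraphs below give the log2 ratio without 1 pool where its sign turned.

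The split separated stain levels by about a doubling. MHC class II intensity ran from 56905 to 157580 with a median of 89492 above, and from 21894 to 65554 with a median of 46219 at or below, a ratio of medians of 1.94. The ranges of the pooled sides overlap because each stratum has its own median, which was 53721 for GFPhi and 57983.5 for GFPlo on the first date, and 66014 and 58032 on the second. The cells nearest the dividing line lay close together: in the largest stratum, GFPhi on the second date, they read 66474 just above and 65554 just below. These values chose the sides and carry no test.

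**Figure D1:**
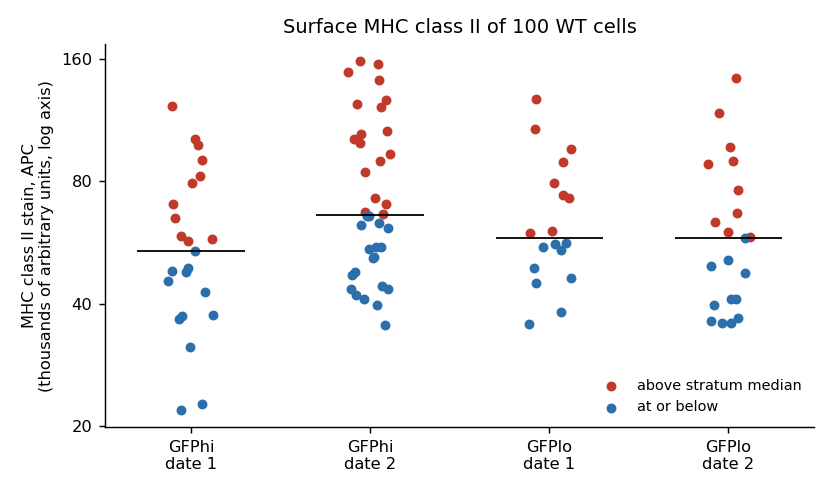
MHC class II stain of each of the 100 wild-type cells (log axis, arbitrary units) in the 4 strata of GFP gate and sort date, with black lines at the stratum medians. Cells lie on both sides close to each line, and the medians run from 53721 to 66014 units.

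Other readings of the same cells, which the split did not use, went partly with the stain. Side scatter, a measure of internal texture, had a median of 20379 units above and 14637 at or below, and it was higher above on each date (5319 against 4535 on the first, 25319 against 20391.5 on the second). Forward scatter, which grows with cell size, had medians of 171433 and 165395. The GFP reporter had medians of 17483 and 13922, with ranges of 869 to 88538 and 350 to 57398 that overlap almost fully. On the second date the Ly51 stain was also brighter above, with medians of 2506 and 1089. Across the 100 cells, with each stratum's mean removed, the stain correlated with side scatter (Pearson r = 0.43, Spearman rho = 0.43) more than with forward scatter (0.23 and 0.14) or total counts (-0.01 and -0.06). These are descriptions over cells that share a sort, its stains and its date. Whether brightness in other channels has a part in the MHC class II reading was not tested.

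Transcripts of the class II chains were higher above the median stain, by much less than the stain itself. The 4 chain genes together stood at 12957 CPM above and 10216 at or below, a ratio of 1.27 (1.25 to 1.29). H2-Aa ran from 346 to 15421 CPM per cell with a median of 4079 above, and from 375 to 10312 with a median of 3267 at or below. Cells of both sides thus covered much of the same range. In the sums H2-Aa stood at 4634 and 3426 CPM, a ratio of 1.35 (1.32 to 1.39). H2-Ab1, the beta chain that pairs with H2-Aa, had per-cell medians of 3666 and 2905 and sums of 4421 and 3296 CPM, a ratio of 1.34 (1.31 to 1.38), and was listed at 0 in 1 cell at or below. H2-Aa and H2-Ab1 were higher above in 4 of 4 strata, where 6.0% of the 13544 genes with at least 20 counts were. The differences were small on the first date (log2 of 0.08 and 0.12) and larger on the second (0.72 and 0.66).

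H2-Eb1 differed less, with per-cell medians of 3372 above and 3167 at or below and a ratio of 1.08 (1.05 to 1.11). The chain list holds no alpha chain gene of I-E. Whether protein of H2-Eb1 or H2-Eb2 was part of the surface stain was not tested. It was lower above in both gates on the first date and higher in both on the second, with an overall log2 of 0.11. TMM scaling shifts the log2 ratio of every gene down by 0.10 here, so that ratios between 1 and 1.07, in all paragraphs, turn below 1 under it, and that of H2-Eb1 comes to lie at about 1. Its log2 ratio was -0.09 without pool 12 and -0.11 without the leukocyte-marked cells. H2-Eb2, a second beta chain gene of the I-E region, had a ratio of 1.48 (1.37 to 1.61) from 1404 and 980 counts and was higher above in 3 of 4 strata. For H2-Eb2 a count was found in 90.0% of cells above and 72.3% at or below once each cell was thinned to 10000 counts. Of the 4 chain genes 4 had a higher level above, as did 53.2% of all genes tested, and none reached a 2-fold difference, as 22.1% of all genes tested did upward and 16.4% downward. Their median log2 ratio was 0.43, beside 0.08 over all genes tested.

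**Figure D2:**
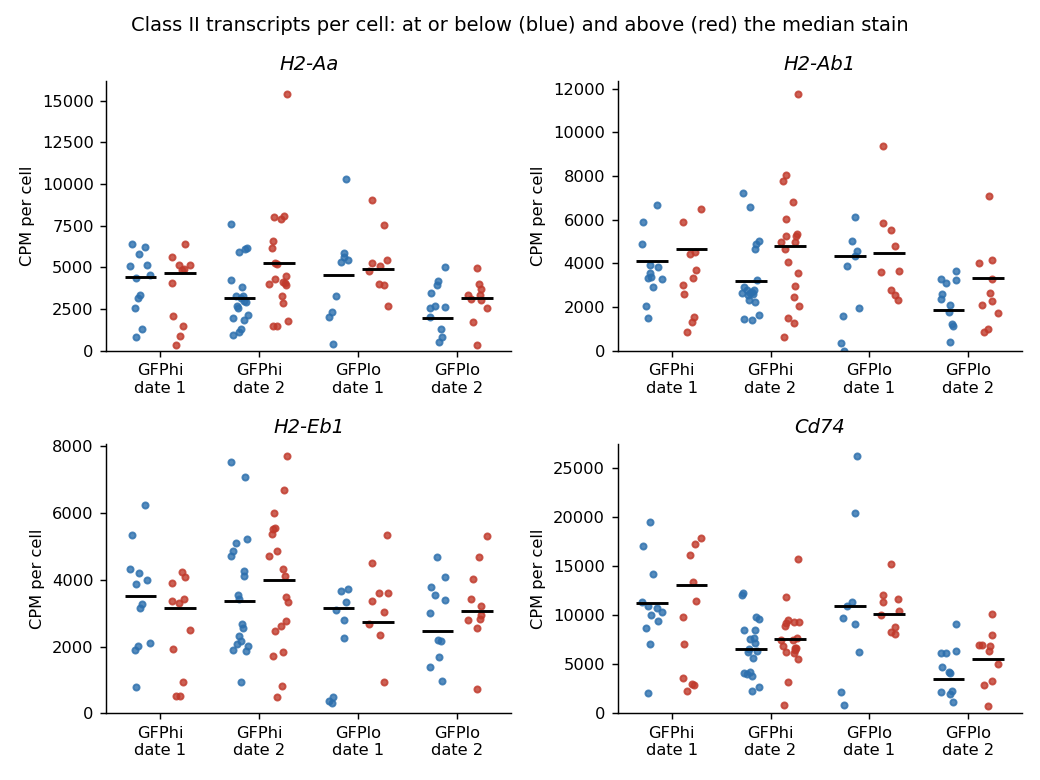
CPM of H2-Aa, H2-Ab1, H2-Eb1 and Cd74 in each cell by stratum, at or below (blue) and above (red) the median stain, with black bars at the level of the summed counts. The blue and red points overlap in each stratum and gene, and the bars for H2-Aa and H2-Ab1 stand farther apart on the second date.

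The chain result moved with single library pools. Without pool 12, which holds 2 of the 5 cells rich in B and plasma cell counts, the log2 ratio of the chain list moved from 0.34 to 0.05. Without pool 11, which holds 3 of those cells, the log2 ratio of the list was 0.49. It was 0.23 without the 40 leukocyte-marked cells, 0.21 without the 5 cells rich in B and plasma cell counts and 0.25 when each cell counted equally. By date it was 0.04 on the first and 0.57 on the second. Fewer cells of another type and less class II RNA per cell cannot be told apart in such sums. In the 100 cells of Aire knockout mice, split by the same rule, it was 0.09.

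The genes of peptide loading did not go one way. As a list they stood at 11351 CPM above and 9795 at or below, a ratio of 1.16 (1.14 to 1.18), of which Cd74 is the larger share. Cd74, the invariant chain, ran from 768 to 17806 CPM per cell with a median of 7653 above, and from 875 to 26167 with a median of 7177 at or below. Its sums gave a ratio of 1.16 (1.14 to 1.18), but a log2 of 0.05 when cells counted equally, and the highest single cells were at or below the median stain. Without pool 12 the log2 ratio of the list was -0.04 and that of Cd74 was -0.05.

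H2-Oa and H2-Ob, the chains of the H2-O protein that restrains H2-DM, had the widest differences of the list upward. H2-Oa stood at 475 CPM above and 256 at or below, with per-cell medians of 361 and 154 and a ratio of 1.85 (1.69 to 2.03). Its log2 ratio was 0.75 and 0.90 in GFPhi and 0.64 and 1.75 in GFPlo on the 2 dates, 0.97 without the leukocyte-marked cells, and between 0.46 and 1.08 when each pool was left out in turn. H2-Ob stood at 297 and 178 CPM, a ratio of 1.67 (1.49 to 1.86), also higher above in 4 of 4 strata. After thinning, H2-Ob was found in 62.5% of cells above and 42.6% at or below, and H2-Oa in 85.0% and 70.2%. In the knockout cells the log2 ratios were 0.18 for H2-Oa and -0.44 for H2-Ob.

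H2-DMa, the alpha chain of H2-DM, was lower above in 4 of 4 strata, as 4.27% of all genes tested were. It stood at 181 CPM above and 258 at or below, 1.42-fold lower (1.27 to 1.6), with per-cell medians of 79.5 and 127. Without the leukocyte-marked cells, however, its log2 ratio was 0.10 and not -0.51. The beta chains H2-DMb1 and H2-DMb2 had ratios of 1.30 (1.15 to 1.48) and 1.20 (1.14 to 1.27), the latter with a log2 of -0.03 without pool 12. Ifi30, the thiol reductase that opens disulfide bonds of antigens, was 1.55-fold lower (1.42 to 1.69), with per-cell medians of 253 and 402, and was higher above in 1 of 4 strata.

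**Figure D3:**
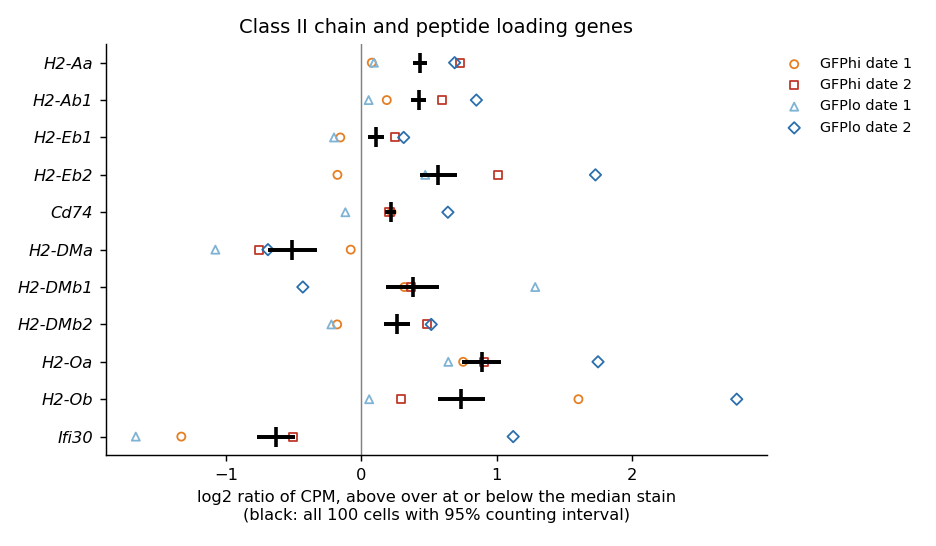
Log2 ratio of summed CPM, above over at or below the median stain, for the 4 class II chain genes and the 7 peptide loading genes, with 95% counting intervals in black and the 4 strata as open symbols. H2-Aa, H2-Ab1, H2-Oa and H2-Ob have their 4 symbols above 0 and H2-DMa its 4 below.

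A finer division gave sums, over both dates and all pools, along the scale of stain. With tertiles of each stratum, the median stain was 41021, 59116.5 and 100405.5 units in the lower, middle and upper group. H2-Aa was at 3090, 4181 and 4622 CPM in these groups, and H2-Ab1 at 2854, 4252 and 4293. In these sums most of the step lay between the lower and the middle group, where the stain differed least. The groups also differed in other counts. B and plasma cell genes were at 23391, 7236 and 6027 CPM, and proliferation genes at 4834, 1258 and 3420. The part of such counts, or of date, in the step was not tested, so the sums do not place it on the stain scale. H2-Eb1 was at 2977, 3348 and 3459 CPM, and Cd74 at 6370, 9882 and 8393, with the middle group highest.

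From cell to cell, the stain and the transcripts went together weakly. With stratum means removed, the correlation of the stain with the chain list over 100 cells was r = 0.17 and rho = 0.24, with H2-Aa 0.18 and 0.25, and with Cd74 0.09 and 0.13. Over the 60 cells that were not leukocyte-marked it was 0.15 and 0.21 for the chain list. Among transcripts of the same cells, H2-Aa went with Cd74 (r = 0.75), H2-Ab1 (0.72), H2-Eb1 (0.71) and also B2m, the light chain of class I (0.69), and less with Aire (0.31). Genes of a cell share its library and depth, and weak correlations in sparse counts are not findings.

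**Figure D4:**
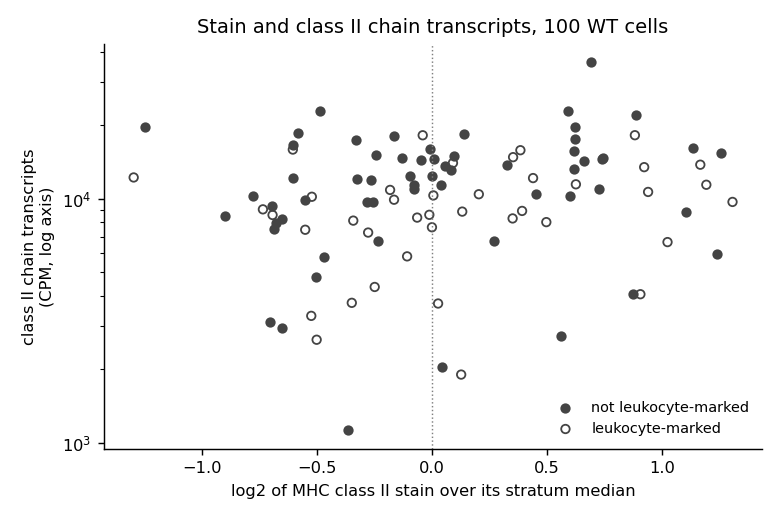
MHC class II stain relative to the stratum median (log2) against the CPM of the 4 class II chain genes (log axis) in the 100 wild-type cells, with leukocyte-marked cells as open circles. The cloud is broad on both sides of the dotted median, with r = 0.17.

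Genes that act before and after loading had mixed differences. The lysosomal proteases, which trim Cd74 and antigens, were as a list 1.06-fold lower above (1.03 to 1.10). Of the 7 genes 5 were lower and 2 higher, beside 53.2% of all genes tested that were higher. Ctsb, cathepsin B, was 1.68-fold lower at 225 and 378 CPM. Ctss, the protease that makes the last cut of Cd74 in many antigen-presenting cells, had a ratio of 1.15 (1.06 to 1.24), Ctsh 1.13 and Ctsz 0.886. Without pool 12 the log2 of Ctss was -0.12, and without pool 11 that of the list was 0.00032. Not one of the 7 went the same way in the 4 strata, near the shares of all genes tested, 6.0% higher and 4.27% lower.

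Transcription factors of the class II promoters were as a list 1.24-fold higher (1.16 to 1.33), but not evenly. Of the 8 genes 6 were higher, beside 53.2% of all genes tested. Ciita, the master activator, stood at 130 CPM above and 86.8 at or below, a ratio of 1.49 (1.27 to 1.76), and was found in 28 cells on each side. Its difference came from GFPhi cells of the first date (log2 of 2.57), while in the other 3 strata it was lower above (-0.42, -1.21 and -1.0). Rfx5, which binds the X box, had a ratio of 1.15 (0.999 to 1.31), Creb1 1.46 and Nfyc, a subunit of the Y box factor NF-Y, 1.47. The log2 ratio of the list was 0.31, but 0.02 without the leukocyte-marked cells, and without 1 pool that of Nfyc was -0.73 (pool 11) and that of Rfx5 -0.02 (pool 12). The second date, where the chain genes differed most, was the date on which Ciita was lower above (log2 of -0.59).

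The genes for surface turnover had a summed ratio of 1.47 (1.39 to 1.56) but a median log2 of -0.03, and without Cd63 the ratio was 0.909. Cd63, a tetraspanin of late endosomes where class II is loaded, was higher above in 4 of 4 strata at 725 and 397 CPM, a ratio of 1.83 (1.70 to 1.97). Its log2 ratio was 0.25 when cells counted equally and 0.87 in the sums. March8, an E3 ligase of the family that marks surface proteins for removal, was 1.83-fold lower, with 49.5% of its counts at or below in 1 cell. March1, the ligase best known for removing class II, had 48 and 37 counts, a ratio of 1.34 (0.857 to 2.12) that does not leave 1. Cd83, which opposes March1, had a ratio of 2.31 (1.81 to 2.96), but 53.7% of its counts above were in 1 cell. Cd82 was lower above in 4 of 4 strata, with a ratio of 0.706.

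Class I presentation as a whole differed little, with a ratio of 1.10 (1.08 to 1.11) that became 1.01 without B2m. B2m stood at 7424 CPM above and 5899 at or below, a ratio of 1.26 (1.23 to 1.28), and was higher above in 4 of 4 strata. The heavy chains H2-K1 and H2-D1 had ratios of 1.09 and 1.06. Pdia3, a chaperone of the loading complex, had a ratio of 1.56 (1.45 to 1.69) and Nlrc5, the activator of class I genes, one of 2.04 (1.54 to 2.73), both higher in 4 of 4 strata. Calr, the chaperone calreticulin, was lower above in 4 of 4, at 1610 and 2196 CPM. Without pool 6 the log2 of H2-D1 was -0.05. Of the 18 class I genes 10 were higher, near the 53.2% of all genes tested, and 8 lower.

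Costimulation genes did not follow the stain as a list, with a ratio of 1.04 (1.01 to 1.07) that TMM scaling turns below 1. Cd80, the costimulator used to mark mature medullary cells, had 46 counts in 10 cells above and 22 counts in 6 cells at or below, a ratio of 2.17 (1.28 to 3.78). Yet 63.0% of the counts above were in 1 cell, and its log2 ratio was -0.19 when cells counted equally and -0.10 without pool 5. Cd86, the partner of Cd80, had a ratio of 2.23 (1.45 to 3.48), lower above in GFPhi (log2 of -1.32) and higher in GFPlo (4.83). Cd40 had a ratio of 1.01 (0.891 to 1.14). Icosl, the ligand of ICOS, was 1.11-fold lower, and Tnfrsf11a, which encodes RANK, the receptor that drives medullary maturation, had a ratio of 1.29 (1.17 to 1.41). Nfkb1 and Nfkb2 had ratios of 1.19 and 1.20. Without pool 12 the log2 ratio was -0.14 for the list and -0.29 for Cd40, without pool 11 it was 0.10 for Icosl, and without pool 4 -0.01 for Nfkb1. Of the 16 genes 12 were higher, beside 53.2% of all genes tested, and 5 at least 2-fold higher, beside 22.1%. None went the same way in the 4 strata, where 6.0% of all genes tested were higher and 4.27% lower.

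Aire, by whose reporter the cells had been gated, was only a little higher above. It ran from 0 to 1957 CPM per cell with a median of 290 above, and from 0 to 1817 with a median of 172 at or below. Counts were found in 41 of 49 and 42 of 51 cells, and in 77.5% and 78.7% of cells after thinning, so the share of cells with Aire was nearly equal. The sums of 468 and 376 CPM gave a ratio of 1.25 (1.15 to 1.35). The log2 ratio was 0.50 without the leukocyte-marked cells, -0.14 in GFPlo cells, -0.01 without pool 12 and 0.66 without pool 11. By tertile Aire was at 320, 550 and 389 CPM, highest in the middle group.

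Among the other regulators of tissue antigens, Fezf2, which acts on a set of antigens of its own, had a ratio of 1.0 (0.942 to 1.07) made of opposite parts, with a log2 of -0.59 on the first date and 1.07 on the second, and -0.41 without pool 12. Sirt1, a deacetylase that acts on Aire, stood at 478 and 247 CPM, with per-cell medians of 273 and 111, a ratio of 1.94 (1.77 to 2.13). It was higher above in 4 of 4 strata, was found in 77.5% and 57.4% of cells after thinning, and had a log2 of 1.43 without the leukocyte-marked cells. Hnf4g, a nuclear receptor, was also higher in 4 of 4 at 125 and 54.9 CPM, a ratio of 2.27 (1.88 to 2.76). Prdm1, which encodes Blimp1, was lower above in 4 of 4, with 38 and 114 counts, and Spib had a ratio of 0.838. In the knockout cells Sirt1 and Hnf4g had log2 ratios of -0.10 and -0.45.

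Tissue antigens, proteins made by other organs, differed more than the class II chains in the sums. The 76 listed genes stood at 8264 CPM above and 5069 at or below, a ratio of 1.63 (1.6 to 1.66). Of the 47 with at least 20 counts 32 were higher, beside 53.2% of all genes tested. At least 2-fold higher were 21, beside 22.1%, and 8 were at least 2-fold lower, near the background of 16.4%. Their median log2 was 0.68, beside 0.08 over all genes tested. Per cell the sum ran from 86.2 to 45973 CPM with a median of 4859 above, and from 32.1 to 57614 with a median of 3276 at or below. After thinning to 10000 counts, the median cell had counts of 8 of the listed antigens above and 5 at or below, and 11 and 8 without thinning. The log2 ratio of the sums was 0.02 on the first date and 1.34 on the second. Within each gate the list was lower above on the first date, with log2 ratios of -0.15 in GFPhi and -0.06 in GFPlo cells. On the second date it was higher above in each gate, with 1.34 in GFPhi and 1.19 in GFPlo cells. The thinned number of antigens, however, was higher above on both dates (8.5 against 6, and 8 against 5). The log2 ratio was 1.04 without the leukocyte-marked cells, 0.26 without pool 12 and 0.51 in the knockout split.

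Single antigens differed in how many cells held them. Csn2, a milk casein, was found in 46 and 47 cells, with per-cell medians of 1064 and 805 CPM and a ratio of 1.38 (1.32 to 1.43), and its log2 was -0.34 on the first date and 1.79 on the second. S100a8, a calcium-binding protein of myeloid cells and inflamed epithelia, had a ratio of 1.71 (1.61 to 1.81), from 36 and 28 cells, but its log2 was -0.35 without pool 12 and -1.13 in GFPlo cells. Reg3g, a lectin of the gut, had one of 2.07 (1.94 to 2.2), with 49.9% of its counts above in 1 cell. Calcb, a neuropeptide gene, had a ratio of 1.28. Of the 47 antigens Klk1, a salivary kallikrein, Chga, of neuroendocrine granules, and Ppy, a hormone of the pancreas, were higher above in 4 of 4 strata and 0 were lower, shares near or below the 6.0% and 4.27% of all genes tested. Klk1 stood at 196 and 52.5 CPM, in 13 and 7 cells.

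Genes of immature medullary cells were lower above in the sums, with 2920 and 4364 CPM, 1.49-fold lower (1.45 to 1.54). Of the 10 genes 7 were lower and 3 higher, beside 53.2% of all genes tested that were higher. Krt14, a basal keratin, was lower above in 4 of 4 strata at 171 and 354 CPM, 2.07-fold lower (1.86 to 2.32), with per-cell medians of 71.5 and 163. It was found in 47.5% of cells above and 68.1% at or below after thinning. Krt5, its partner, was 2.43-fold lower, with a median of 0 on both sides. Ly6a, Krt17 and the integrin Itga6 were 1.39-, 1.43- and 1.73-fold lower. Without 1 pool the log2 of Ly6a was 0.46 (pool 12) and that of Krt17 0.0021 (pool 11). Ccl21a, a chemokine of immature medullary cells, was 2.45-fold lower in the sums but higher above in 3 of 4 strata. The list was lower above in 3 of 4 strata. On the first date its log2 ratio was 0.42, with 1.11 in GFPlo and -0.28 in GFPhi cells, and on the second it was -0.99.

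Lists of other thymic epithelial fates rested on few cells. Late keratinocyte-like genes had a ratio of 1.06 (1.01 to 1.12), which TMM scaling turns below 1, and 56.2% of their counts above were in 1 cell. The log2 ratio of that list was -2.57 on the first date and 0.92 on the second, 0.74 without the leukocyte-marked cells and -1.10 without pool 9. Of Krt10, which was 10.5-fold lower above, 96.5% of the counts at or below were in 1 cell, while Krtdap, Spink5 and Dmkn had ratios of 1.42, 1.84 and 1.20. Without pool 9 these 3 went the other way, with log2 ratios of -2.65, -1.57 and -2.79, and without pool 3 Krt10 had one of 1.41. Tuft genes had a ratio of 2.21 (1.88 to 2.6) with a log2 of -0.34 without pool 11. Gng13 had 119 and 12 counts, Ltc4s 57 and 30 and Pou2f3, the tuft factor, 72 and 35, and Dclk1 was 1.88-fold lower. Without pool 11 the log2 was -0.18 for Gng13 and -2.37 for Ltc4s. Cortical genes were 1.17-fold lower (1.13 to 1.22), with 61.9% of the counts at or below in 1 cell. That direction held in 1 of 4 strata: the list was higher above in the other 3, with a log2 of -0.71 on the first date and 0.94 on the second, and of 0.80 without pool 4. Psmb11, the cortical proteasome subunit, was 12.1-fold lower with 97.6% of counts at or below in 1 cell, Ccl25 was 1.6-fold lower, Tbata had a ratio of 1.42 and Prss16 one of 0.870. Without pool 4 the log2 was 1.49 for Psmb11, 1.30 for Ccl25 and 0.16 for Prss16.

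Chemokines as a list were higher above in 4 of 4 strata, with a ratio of 1.23 (1.20 to 1.26). Yet 9 of 18 genes were higher, near the 53.2% of all genes tested, and 9 lower, with a median log2 of -0.03. Their log2 ratio of 0.30 was 0.71 without the leukocyte-marked cells. Ccl19, which draws CCR7-bearing cells to the medulla, was higher in 4 of 4 at 1238 and 701 CPM, with per-cell medians of 707 and 558 and a ratio of 1.77 (1.67 to 1.87). Ccl5 had a ratio of 2.46 with 72.3% of counts above in 1 cell, and Cxcl10 one of 1.03, with log2 ratios of -0.29 without pool 5 and -0.26 without pool 12. Ccl20 was 3.72-fold lower, with 46.3% of counts at or below in 1 cell. Interferon response genes were 1.19-fold lower (1.15 to 1.24). Of the 19 genes 15 were lower and 4 higher, beside 53.2% of all genes tested that were higher. Ifitm3 was 1.64-fold lower, Oasl2 had a ratio of 0.963 and Usp18 one of 1.26. The strata did not go one way, with log2 ratios of the list from -1.35 to 1.0, and it was 0.04 without pool 11. Oasl2 had a log2 of 0.36 without pool 11, and Usp18 one of -0.35 without pool 6.

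Proliferation genes were 1.17-fold lower above (1.13 to 1.20). Of the 26 genes 20 were lower and 6 higher, beside 53.2% of all genes tested that were higher. The list was lower above in GFPhi cells on both dates (log2 of -1.06 and -0.72) and higher in GFPlo cells on both (0.41 and 0.44). H2afz was 1.27-fold lower and Pcna 1.23-fold, Hmgb2 had a ratio of 1.04, and Top2a one of 1.80 with 72.2% of its counts above in 1 cell. Cdk1, Mcm7 and Cdc20 were lower above in 4 of 4 strata, Cdk1 with 247 and 493 counts. Without the leukocyte-marked cells the list had a log2 of -0.82, and without the 5 cells rich in B and plasma cell counts 0.32. Without pool 12 it was 0.57 for the list, 0.02 for H2afz and 0.67 for Pcna, and without pool 11 it was -2.62 for Hmgb2 and -2.31 for Top2a. Immediate early and heat shock genes, which report stress of the preparation, were close, with a ratio of 0.964 (0.946 to 0.981): Hspa8 0.967, Jund 0.861, Hsp90aa1 0.870 and Fos 0.901. Without 1 pool the log2 ratio was 0.02 for the list and 0.10 for Hspa8 (pool 6), and 0.26 for Jund and 0.25 for Fos (pool 12).

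Epithelial markers were slightly higher above, with a ratio of 1.15 (1.12 to 1.18). Epcam had per-cell medians of 250 and 215 CPM and a ratio of 1.34 (1.23 to 1.46), the keratins Krt8 and Krt18 ratios of 1.29 and 1.16, and Cdh1 one of 0.923. The list had a log2 of -0.07 on the second date, Krt18 one of -0.18 without pool 12 and Cdh1 one of 0.41 without pool 11. The tight junction gene Cldn4 was higher above in 4 of 4 strata, with 77 and 16 counts. B and plasma cell genes, by contrast, were 3.68-fold lower (3.61 to 3.75) at 4919 and 18095 CPM, where per-cell medians were 521 and 806 and the highest cell at or below reached 152036 CPM. Igj, Ighm, Igkc and Mzb1 were 3.42-, 6.59-, 3.91- and 3.54-fold lower, and Ighm had a log2 of 4.27 without pool 12. On the first date, and without the 5 cells rich in these genes, the list was higher above (log2 of 1.29 and 0.51). B cells and dendritic cells carry class II of their own, and the part of such RNA in the class II levels was not tested beyond the values without these cells.

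Pan-leukocyte genes had a ratio of 1.23 (1.18 to 1.28), with Rac2 at 1.20, and Laptm5 and Lcp1, higher above in 4 of 4 strata, at 1.62 and 1.94. Arhgdib was 1.37-fold lower and Ptprc had a ratio of 0.969 (0.777 to 1.21). Without pool 11 the log2 was -0.07 for the list and -0.30 for Rac2, and without pool 12 it was 0.16 for Arhgdib and 1.15 for Ptprc. Dendritic and macrophage genes had a ratio of 0.915 (0.854 to 0.981) but a median log2 of 0.67 over 19 genes, with Lyz2 at 0.663, Ccr7 at 1.16, Zbtb46 at 0.793 and Fcer1g at 0.589. The log2 ratio of the list was 0.32 without the leukocyte-marked cells and 0.16 without pool 1, and without pool 5 it was -0.50 for Ccr7 and 0.28 for Zbtb46. Per cell this list ran from 0 to 2613 CPM above and from 0 to 7895 at or below. Thymocyte genes had a ratio of 1.43 (1.27 to 1.61), most of it Tcf7 (1.78), with Cd3g at 78 and 31 counts, Themis at 58 and 24 and Satb1 at 30 and 51, and without pool 5 Themis had a log2 of -1.61. Fibroblast and endothelial genes had a ratio of 1.41 (1.24 to 1.6), with Dcn at 1.11, Tek at 1.33 and Col1a1 and Col1a2 with 98.7% of their counts above in 1 cell each. The list had a log2 of -0.07 on the first date and -0.04 without the 5 cells rich in B and plasma cell counts. Without 1 pool the log2 was -1.73 for Dcn (pool 4), -1.36 for Tek and -0.94 for Col1a1 (pool 11), and -3.87 for Col1a2 (pool 12).

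**Figure D5:**
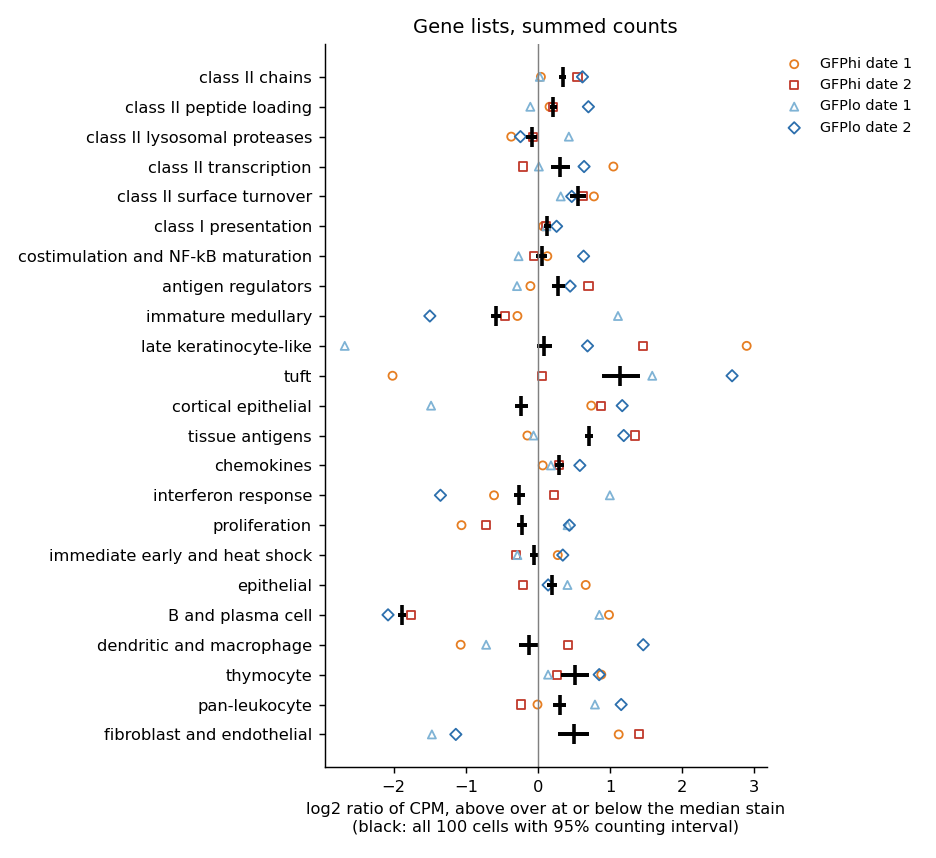
Log2 ratio of summed CPM, above over at or below the median stain, for the 23 gene lists, with 95% counting intervals in black and the 4 strata as open symbols. Class II chains, class II surface turnover, class I presentation, chemokines and thymocyte genes have their 4 symbols above 0, and for most other lists the strata fall on both sides.

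Across all genes, 2994 of 13544 were at least 2-fold higher above and 2218 at least 2-fold lower. Of the 764 genes higher above and 722 lower that kept one direction in both gates and on both dates and were not carried by 1 cell, the 12 with the highest and the 12 with the lowest bounds were taken. The upper 12 were Kcnj3, Zeb2, Slc4a10, Ccdc126, Pink1, Zer1, S1pr2, Ryr2, Med20, Ccbl2, Ranbp6 and Bmf. Of these 12, 6 were higher above in 4 of 4 strata, beside 6.0% of all genes tested, which had not been chosen for direction. Kcnj3, a subunit of an inward rectifier potassium channel, stood at 172 CPM above and 10.6 at or below, a ratio of 16.1 (11.2 to 24), was found in 23 and 9 cells (37.5% and 10.6% after thinning) and was higher in 4 of 4 strata. Zer1, an adaptor of a ubiquitin ligase, was found in 17 and 6 cells with a ratio of 7.31 (4.38 to 13), and Pink1, a mitochondrial kinase, in 13 and 9 with a ratio of 8.95. Zeb2, a repressor of epithelial genes, had a ratio of 10, and Ryr2, a calcium release channel of heart muscle, one of 6.21.

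The lower 12 were Lias, Cd151, Slc46a2, Eif2b2, Alg3, Raly, Mllt1, Kctd20, Wfikkn2, Nme3, Fopnl and Coq2. Of these 12, 3 were lower above in 4 of 4 strata, beside 4.27% of all genes tested. Lias, the lipoic acid synthase of mitochondria, had 17 and 150 counts in 10 and 18 cells, 8.52-fold lower (5.15 to 15) and lower in 4 of 4 strata. Cd151, a tetraspanin that binds laminin-receptor integrins, was 6.95-fold lower, and Slc46a2, a transporter known from thymic stroma, 7.27-fold lower with 10 and 19 cells. In the knockout split 9 of the upper 12 and 6 of the lower 12 had the same direction. No share over all genes tested is given for that comparison, so neither number shows that a direction carries over to knockout cells. The rule itself fixed the directions by gate and date, so these values describe the 100 cells and support nothing further.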

How the data were processed

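The wild-type cells and the lists were chosen with earlier results of these data known. Per the labels' protocols, RNA of single sorted cells was reverse transcribed with oligo dT adapters and amplified by in vitro transcription. The authors deposited 1 table of counts per gene and cell, and 1 table of cytometer intensity and read or identifier counts per cell, in units named per the file headers. Per the submitters' processing notes, TopHat, TopHat2, Picard 1.79, SAMtools 0.1.19, HTSeq and the build mm10 were used; whether counts are collapsed by identifier is not given in the sources used here. In 21 of 100 cells the total exceeds the identifier count, and in 0 the unique reads. The 37 mitochondrial genes have 0 counts in these cells.

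Cells were split above the median of the MHC class II intensity within GFP gate and sort date. Counts were summed over 49 and 51 cells, as 1 sample a side, so no test was made. Ratios of counts per 1000000 (CPM) have exact conditional binomial 95% intervals (Clopper-Pearson), and log2 ratios add 0.5 to each sum; a stratum with no count gives no log2 value. PCR and amplification copies are not independent molecules, so these intervals cover counting error only. Genes with at least 20 counts were set against a 2-fold difference. Thinning to 10000 counts left out 9 cells above and 4 at or below. A cell was leukocyte-marked where its leukocyte list counts exceeded its epithelial list counts; doublets were not called, since each well received 1 sorted cell per the labels. Named genes were H2-Aa, H2-Ab1, H2-Eb1, Cd74, Ciita, Cd80, Cd86, Cd40, Aire, Fezf2, Epcam and Ptprc, the 4 members with most counts of each list, and the 12 highest and 12 lowest by the interval bound nearest 1 among genes with at least 30 counts, 8 cells with counts, at most 30% of counts in 1 cell and one direction by cell mean, gate and date. Other gene names were added with their values in view: some, not all, of the list members that went one way in 4 of 4 strata, and March1, Krt5, Ccl21a and Nfkb2. One gene among the most counted of its list is not reported here. Of 390 names 386 matched once in the annotation. Alternatives were cell means, Mantel-Haenszel weights, TMM (edgeR 4.0.16, R 4.3.3) and median-of-ratios scaling, count filters, tertiles, primer kind, and leaving out cells, pools, dates or gates; 2 were added after seeing the data, leaving out each cell in turn and the cells rich in B and plasma cell counts. The scripts ran under Python 3.11.15 with scipy 1.17.1 for the intervals, pandas 2.3.3 and numpy 2.4.6 for the sums and matplotlib 3.10.9 for the plots, and were tested on simulated data.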

Additional observations from a re-analysis of the deposited data

Results flagged for a closer look

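Of 35 lists and genes looked at, 10 had both gates going one way on 1 sort date and the other way on the other date, or both dates of 1 gate going against both of the other. These differences were not tested, and each stratum is 1 sample a side. By date (log2 ratio of the second date minus that of the first), H2-Eb1 differed by 0.42, from -0.15 to 0.27, the antigen regulators by 0.70, from -0.04 to 0.66, and Fezf2 by 1.66, from -0.59 to 1.07. Tissue antigens differed by 1.32, from 0.02 to 1.34, although each gate alone was negative on the first date (-0.15 in GFPhi and -0.06 in GFPlo). Dendritic and macrophage genes differed by 1.59, from -0.88 to 0.72, and B and plasma cell genes by -3.22, from 1.29 to -1.93.

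By gate (GFPlo minus GFPhi), proliferation genes differed by 1.43, from -0.87 to 0.56, and pan-leukocyte genes by 1.25, from -0.17 to 1.08. Fibroblast and endothelial genes differed by -2.65, from 1.30 to -1.35. Cd86 differed by 6.15, from -1.32 to 4.83, on 71 counts above and 33 at or below.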

How the results depend on the processing

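The log2 ratios given in the report were class II chains 0.34, class II peptide loading 0.21, tissue antigens 0.71 and Aire 0.32, and those that left their counting intervals, or for genes and lists at least 2-fold apart changed sign, follow by setting. With cells counted equally the values were class II chains 0.25, class II peptide loading 0.064 and tissue antigens 0.52, with a change of sign in Cd80 -0.19 and Themis -0.34. With Mantel-Haenszel weights the values were class II peptide loading 0.18 and tissue antigens 0.63. With TMM scaling the values were class II chains 0.24, class II peptide loading 0.11 and tissue antigens 0.60. With median-of-ratios scaling the values were class II chains 0.29, class II peptide loading 0.16 and tissue antigens 0.65. Without leukocyte-marked cells the values were class II chains 0.23, class II peptide loading 0.33, tissue antigens 1.04 and Aire 0.50, with a change of sign in Col1a1 -1.97, Krt10 0.19 and Themis -2.58. Without the cells rich in B and plasma cell counts the values were class II chains 0.21, class II peptide loading 0.12, tissue antigens 0.52 and Aire 0.19, with a change of sign in B and plasma cell 0.51, Col1a1 -0.49, Ighm 0.76 and Igj 0.13. On the first date the values were class II chains 0.040, class II peptide loading 0.077, tissue antigens 0.020 and Aire 0.083, with a change of sign in tuft -0.94, B and plasma cell 1.29, Gng13 -0.32, Ighm 4.27, Igj 2.68, Mzb1 2.29 and Reg3g -0.31. On the second date the values were class II chains 0.57, class II peptide loading 0.33, tissue antigens 1.34 and Aire 0.53. In GFPhi cells the values were class II chains 0.38, class II peptide loading 0.25 and tissue antigens 0.78, with a change of sign in tuft -0.58, Cd83 -0.70, Cd86 -1.32, Ighm 0.023 and Psmb11 1.78. In GFPlo cells the values were class II chains 0.23, class II peptide loading 0.10, tissue antigens 0.050 and Aire -0.14, with a change of sign in Ccl5 -1.58, Col1a2 -0.46, Reg3g -0.074 and Themis -2.04. With ls primers the values were class II chains 0.27, tissue antigens 0.76 and Aire 0.18. With umi primers the values were class II chains 0.49, class II peptide loading -0.055, tissue antigens 0.10 and Aire 0.82, with a change of sign in Cd80 -1.97, Gng13 -3.50, Kctd20 1.05, Krt10 3.92, Reg3g -2.70 and Themis -1.57. Without the 20 cells of lowest depth the values were class II peptide loading 0.24 and tissue antigens 0.80. With the upper tertile against the lower the values were class II chains 0.48, class II peptide loading 0.38 and tissue antigens 0.61, with a change of sign in Psmb11 0.16. Leaving out each pool or each cell in turn gave ranges of class II chains 0.054 to 0.49, class II peptide loading -0.043 to 0.42, tissue antigens 0.26 to 0.97 and Aire -0.014 to 0.66. Leaving out 1 pool, named in parentheses, changed the sign of genes and lists at least 2-fold apart, whose ranges over the 12 pools were tuft -0.34 to 1.64 (pool 11), Ccl5 -0.29 to 2.21 (pool 5), Cd80 -0.10 to 1.90 (pool 5), Col1a1 -0.94 to 5.17 (pool 11), Col1a2 -3.87 to 5.37 (pool 12), Gng13 -0.18 to 4.01 (pool 11), Ighm -5.68 to 4.27 (pool 12), Krt10 -4.06 to 1.41 (pool 3), Psmb11 -4.66 to 1.49 (pool 4) and Themis -1.61 to 2.47 (pool 5). Genes at least 2-fold higher and lower numbered 2994 and 2218, or 5649 and 4171 with no filter on counts and 1360 and 957 with at least 100 counts, and they ranged over 2712 to 3151 and 2082 to 2822 when pools or cells were left out. The causes of these moves were not tested. No paired analysis was possible because the labels name no animals and the replicate numbers only count cells in accession order. Depth limits genes such as Cd80, with 46 and 22 counts.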

Other observations

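Genes of cytosolic ribosomal proteins, a list added after the data were seen, were lower above the median stain. Of 81 tested 76 were lower and 5 higher, beside 53.2% of all genes tested that were higher. The list was 1.18-fold lower (1.18 to 1.19), with per-cell medians of 95980 and 120894 CPM. The log2 ratios were -0.74 and -0.62 in GFPhi and GFPlo on the first date and 0.06 and -0.11 on the second. The dates thus differed, in the other order than for the class II chains, which were alike in level on the first date and higher above on the second. In the knockout split the list had a log2 of -0.22.

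The CD4 stain, read on the same cells, had medians of 11641 above and 7244 at or below on the first date and 1855 and 1040 on the second, with overlapping ranges. Reads of the GFP transcript had medians of 10 above and 27 at or below, against medians of the GFP signal of 17483 and 13922, and their totals were 5970 and 4281 counts. Genes detected per cell after thinning had medians of 2813 and 2691.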
